A study of Mus musculus with 8 samples.

Results

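The cytosolic ribosomal protein genes, which encode the protein part of the ribosomes in the cytoplasm, were followed in 8 bulk RNA-seq libraries of mouse tumour organoids. Members were the protein-coding genes whose symbol begins with Rpl, Rps, Rplp or Rpsp and goes on with a number, a single optional letter and optional digits. The rule gave 83 of the 45777 genes in the deposited count tables, of which 52 carry large-subunit symbols and 31 small-subunit symbols. A further 5 genes matched the symbol pattern and were left out because they are not annotated as protein-coding. The members were set by symbol and annotation and not by their values, although earlier results of these data were known.

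The organoids are 3-dimensional cultures that the labels call hepatocellular carcinoma related to MASH (metabolic dysfunction-associated steatohepatitis), all with the genotype WT. The lenvatinib group held 1 library each of lines SNU-6624 and SNU-6625 labelled as treated with lenvatinib, an inhibitor of several receptor tyrosine kinases that is used against liver cancer. The resistant group held 1 library each of the lenvatinib-resistant forms of the same lines, which carry the treatment label control. The parental group, also labelled control, held 1 library each of SNU-6624, SNU-6625, SNU-6621 and SNU-6622. The labels used here give no dose, no duration and no animal behind a line, so a p-value reflects how far these libraries vary, which may be technical. Multi-biotics appear in the design text, but libraries of that kind were not analysed here.

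A ribosome is built from ribosomal RNA and one or few copies of each ribosomal protein, so cells make the proteins in near-equal numbers. Their mRNAs are abundant, short and long-lived, and most begin with a 5′ terminal oligopyrimidine (TOP) tract, a cytosine followed by a run of pyrimidines. Through this tract mTORC1, a growth-sensing kinase complex, and the RNA-binding protein LARP1 control how strongly these mRNAs are translated and stored. RNA-seq measures the mRNA and not its translation. In tumours of the liver, as in other growing tissue, ribosome production is generally raised with cell growth.

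Total counts lay between 49 and 61 M per library. Ribosomal RNA made up 0.0411% to 0.0533% of counts in lenvatinib and resistant libraries and 0.0942% to 0.11% in parental ones. Mki67, a gene of dividing cells, had 1.49 and 1.93 CPM (a gene's counts scaled to a common library total) in the lenvatinib libraries, 39.0 CPM in resistant SNU-6624, 0.279 CPM in resistant SNU-6625 and 55.4 to 233 CPM in the parental libraries. Of 8 hepatocyte markers, 4, among them Alb, had no count in any library. The 8 together summed to 5.59 to 11.0 CPM in lenvatinib, 109.6 to 121 CPM in resistant and 91.1 to 151 CPM in parental libraries, nearly all of it from Hnf4a. The 6 biliary and progenitor markers summed to 2241 to 2737 CPM in lenvatinib, 9107 to 11732 CPM in resistant and 6761 to 7942 CPM in parental libraries. Most of the difference between lenvatinib and parental sums came from Krt19 and Krt7. In SNU-6624 and SNU-6625, Sox9 alone was higher under lenvatinib, with 55.3 and 63.0 CPM against 32.4 and 45.8 CPM in parental libraries. Epcam overlapped, with 352 and 402 CPM against 374 and 476 CPM. Of the stellate, endothelial and leukocyte markers none passed 2 CPM in any library, and 4 of 6, 2 of 5 and 2 of 6 had no count at all. The part of these differences in the results below was not tested. In bulk libraries, fewer cells of one kind and less RNA per cell cannot be told apart.

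The start of a ribosomal protein mRNA is the part that makes it a TOP mRNA, so the bases around the annotated transcript start are shown for 6 members named in the results that have a promoter entry: the lowest and highest under lenvatinib and the paralogs that stood apart. Each sequence runs 5′ to 3′ on the gene's strand, from 30 bases before the start to the 25th base of the transcript, and is from RefSeq (GRCm38.p6). Capitals mark the longest run that begins with C and continues with at least 7 C or T bases, and the first of 2 equal runs in Rps27l.
Rpl22l1, chr3:28805478-28805532, plus strand: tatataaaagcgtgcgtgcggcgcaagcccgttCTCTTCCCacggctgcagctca
Rps9, chr7:3704011-3704065, plus strand: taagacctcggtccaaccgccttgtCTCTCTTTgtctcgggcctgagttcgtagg
Rpl13a, chr7:45128721-45128775, minus strand: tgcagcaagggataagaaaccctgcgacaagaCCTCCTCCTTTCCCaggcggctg
Rplp2, chr7:141447621-141447675, plus strand: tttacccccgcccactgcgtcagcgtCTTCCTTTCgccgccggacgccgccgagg
Rps27l, chr9:66946056-66946110, plus strand: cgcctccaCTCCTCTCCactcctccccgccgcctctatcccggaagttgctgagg
Rpl7l1, chr17:46782632-46782686, minus strand: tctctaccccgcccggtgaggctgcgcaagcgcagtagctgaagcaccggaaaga
Rpl22l1 and Rps9, which had the lowest log2 fold changes under lenvatinib, carry runs of 8 bases, Rpl13a, also among the lowest, a run of 14, and Rplp2, with the highest, a run of 9. Rpl7l1, also among the highest under lenvatinib, has no such run in these bases. Annotated starts can lie some bases from the true ones.

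RefSeq's table of 300-base promoters held 63 of the 83 members. A run of this kind lay within 50 bases of the annotated start, on the gene's strand, in 53 of the 63, or 84.1%, against 8595 of the 27025 genes of the table that have a promoter entry, or 31.8%. A match is a description of letters and not a tested TOP tract.

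Of the 83 members, 80 passed edgeR's own filter on low counts. The 3 that did not are paralogs known for expression in other tissues. Rpl10l and Rpl39l, known for expression in testis, had 0 counts in every library, where 3 counts would be 0.0492 to 0.0612 CPM. Rpl3l, known from heart and skeletal muscle, had 3 counts in resistant SNU-6624, 2 in parental SNU-6621 and 0 in the other 6 libraries. Their broadly expressed counterparts Rpl10, Rpl39 and Rpl3 had 945, 299.7 and 1199 CPM in parental SNU-6624. The tested member Rpl32l had 0.153 to 0.408 CPM over the 8 libraries. The other 79 members had at least 20 CPM in every library.

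The 79 members differed widely from each other in level. Scaled to the length of the shortest consensus coding transcript, the mean parental level was highest for Rps24 at 1667 CPM per kb, followed by Rpl41 at 1442, Rplp1 at 1431, Rps15 at 1333, Rpl23a at 1298 and Rpl13 at 1284 CPM per kb. Rplp1 is a protein of the acidic stalk that recruits translation factors, and Rpl41 is a very short peptide at the interface of the subunits. Rpl7l1, a counterpart of Rpl7 known in human cells from precursors of the large subunit, had 50.6 CPM per kb, and Rpl22l1, a paralog of Rpl22, had 149 CPM per kb. Rps20, at 111 CPM per kb, is understated because its transcript in this annotation is 3706 bases long. The main copies Rpl7 and Rpl22 had 979 and 625 CPM per kb, well above their paralogs.

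Among the 4 parental lines, the members followed a common order. The coefficient of variation of CPM had a median of 13.4% over the 79 members, with the lowest at 3.65% for Rplp2 and the highest at 24.8% for Rpl11, whose protein binds the p53 regulator Mdm2 when ribosome assembly is disturbed. SNU-6624 had the highest level for 64 of the 79 members and SNU-6625 for the other 15. SNU-6621 had the lowest level for 69 members and SNU-6622 for 9. Rpl11 had 512, 506, 283 and 422 CPM in parental SNU-6624, SNU-6625, SNU-6621 and SNU-6622, so that SNU-6621 stood 0.58 below the next line on the log2 scale. Rps18 had 728, 733, 429 and 640 CPM in the same order and showed the same gap of 0.58. An exception was Rpl22l1, with 83.5, 94.9, 83.0 and 50.5 CPM in that order, which was lowest in SNU-6622 by 0.72. Each line had 1 parental library, so these differences have no replicate check.

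**Figure D1:**
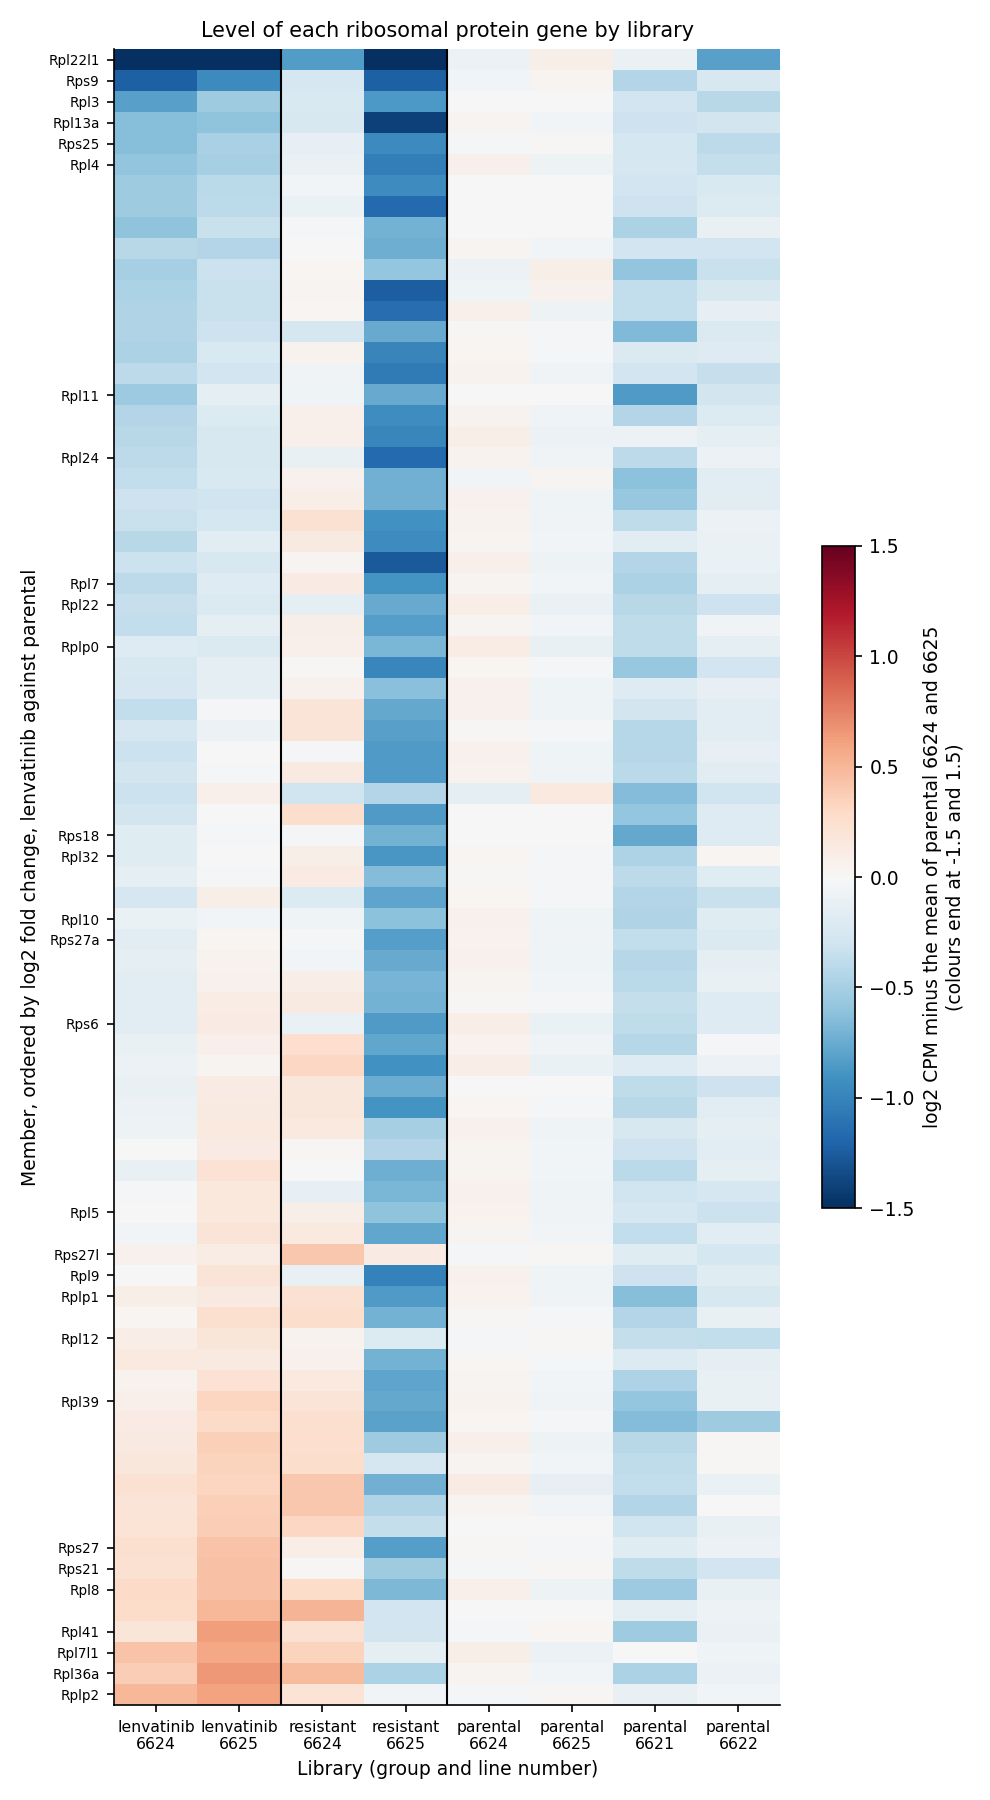
Each row is a member with at least 20 CPM in every library (79 in all), each column a library, and the colour is log2 CPM minus the mean of parental SNU-6624 and SNU-6625, with rows ordered by the fitted log2 fold change of lenvatinib against parental and some rows named. Both lenvatinib columns run from blue at Rpl22l1 and Rps9 to red at Rpl36a and Rplp2, while resistant SNU-6625 is blue in nearly every row.

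The members together held a few percent of all counts. Their share was 4.55% and 5.15% in lenvatinib SNU-6624 and SNU-6625. It was 5.44% and 3.08% in the resistant libraries of these lines, and 5.36%, 5.11%, 3.99% and 4.60% in parental SNU-6624, SNU-6625, SNU-6621 and SNU-6622. Resistant SNU-6625 was the lowest of the 8 libraries and resistant SNU-6624 the highest. Counting error is small at this depth: the 95% Wilson interval for resistant SNU-6625 was 3.074% to 3.083%, and it covers counting error only.

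Group means did not separate. The share averaged 4.85% ± 0.425 in lenvatinib libraries and 5.24% ± 0.182 in the parental libraries of the same lines (SD, n = 2 each), a difference of -0.386 percentage points. It was -0.816 points for SNU-6624 and 0.0434 points for SNU-6625, so the lines went opposite ways. The resistant libraries averaged 4.26% ± 1.67 (SD, n = 2), -0.977 points from parental, with 0.0738 points for SNU-6624 and -2.03 points for SNU-6625. Against lenvatinib the resistant libraries differed by -0.591 points, with 0.890 for SNU-6624 and -2.07 for SNU-6625. In two-sided exact permutation tests p was 0.667, 1 and 1 for these comparisons, where 2 libraries against 2 cannot go below 0.33.

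**Figure D2:**
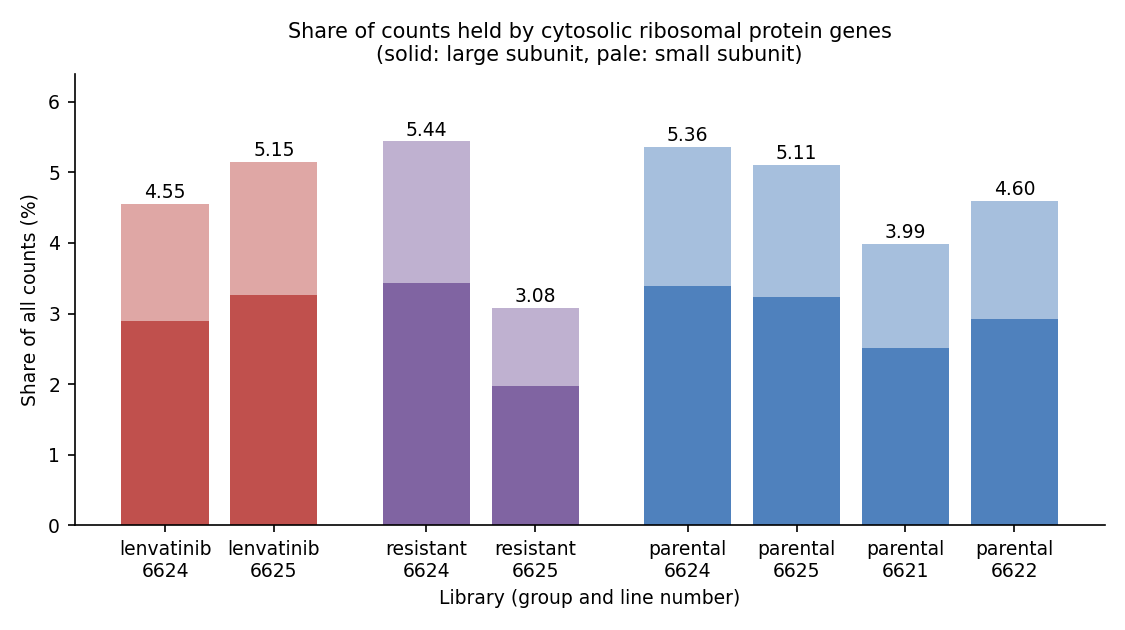
Bars give the percentage of all counts in each library held by the 83 members, with the solid part for large-subunit genes and the pale part for small-subunit genes. The total ranges from 3.08% in resistant SNU-6625 to 5.44% in resistant SNU-6624, and the 2 parts keep nearly the same proportion.

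The balance of the subunits varied within a narrow range. Large-subunit genes held 1.75 and 1.73 times the counts of small-subunit genes in the lenvatinib libraries, 1.71 times in resistant SNU-6624, 1.80 times in resistant SNU-6625 and 1.69 to 1.74 times in the parental libraries. The highest ratio was thus in the library with the lowest share. Resistant SNU-6625 also had the lowest Mki67 level and the lowest share of Eef1a1, the most abundant TOP mRNA outside the set, at 0.698% of counts against 0.926% to 1.26% in the other 7 libraries. The part of these differences in the low share was not tested.

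Under lenvatinib, the members as a set lay slightly below the parental level, and within the set the same members tended to lie lower, or higher, in both lines. Rpl22l1, whose mRNA the Rpl22 protein is known to repress in mouse cells, fell, with a log2 fold change of -1.82. Rps9, a small-subunit protein of the mRNA entry channel, was the next lowest, and Rplp2, a partner of Rplp1 in the stalk, had the highest log2 fold change. The edgeR quasi-likelihood test over 6 libraries, with line as a term and Benjamini-Hochberg adjustment over 17038 genes, called 1 of 80 members at an adjusted p under 0.05, 0 higher and 1 lower. Over all genes tested it called 5.78%, 1.70% higher and 4.08% lower. At an unadjusted p under 0.05 there were 5 members, and 31.8% of all genes.

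Rpl22l1 had 24.0 and 29.5 CPM in lenvatinib SNU-6624 and SNU-6625, against 83.5 and 94.9 CPM in the parental libraries of these lines and 83.0 and 50.5 CPM in parental SNU-6621 and SNU-6622. Both lenvatinib libraries lay below all 4 parental ones, as they did for 21.4% of all genes tested. The log2 fold change was -1.82 (SE 0.29) with an adjusted p of 0.0461 in edgeR, and within the lines it was -1.83 for SNU-6624 and -1.78 for SNU-6625. The call is close to the threshold: in edgeR the adjusted p was 0.0511 with all 8 libraries, 0.0592 with library size as the only scaling, 0.0641 with no filter on low counts, and 0.152 to 0.328 without 1 of the lenvatinib or parental libraries. Over all alternatives, DESeq2 and limma-voom included, it ranged from 1.08e-06 to 0.328, and 10 of 17 made the call. The paralog Rpl22 had 263 and 287 CPM in the lenvatinib libraries against 358 and 310.3 CPM in the parental libraries, a log2 fold change of -0.35 (SE 0.20) that was not called, with an adjusted p of 0.287 in edgeR. Counts of Rpl22l1 were 9.14% and 10.3% of those of Rpl22 in the lenvatinib libraries, 16.6% and 13.4% in the resistant libraries and 18.8% to 33.3% in the 4 parental libraries.

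Rps9 had 355 and 428 CPM in lenvatinib SNU-6624 and SNU-6625, against 808 and 852 CPM in their parental libraries. The lowest of the 4 parental libraries, SNU-6621, had 612 CPM, so the groups did not overlap. The log2 fold change of -1.16 (SE 0.32) was not called in the 6 libraries, with an adjusted p of 0.0955 in edgeR, and it was -1.24 for SNU-6624 and -1.10 for SNU-6625. Rpl3, which lies by the site of peptide bond formation, had 684 and 832 CPM against 1199 and 1207 CPM, a log2 fold change of -0.75 (SE 0.26) with an adjusted p of 0.143 in edgeR. Rpl13a, known in human cells also for silencing inflammatory mRNAs, had 639 and 657 CPM in lenvatinib against 1027 and 968 CPM in parental libraries, a log2 fold change of -0.70 (SE 0.32). Rps25, known for its need in initiation at internal entry sites, had 258 and 286 CPM against 396 and 406 CPM, and Rpl4, of the exit tunnel wall, had 1243 and 1329 CPM against 1973 and 1783 CPM. For these 4 genes too, both lenvatinib libraries were below all 4 parental ones, as they were for 21.4% of all genes tested. The genes were picked for low log2 fold changes in these libraries, so this separation is not separate support.

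At the other end, Rplp2 had 430.2 and 466 CPM in lenvatinib SNU-6624 and SNU-6625, against 302 and 309 CPM in their parental libraries and 283 and 298 CPM in parental SNU-6621 and SNU-6622. Its log2 fold change was 0.47 (SE 0.18), with an adjusted p of 0.155 in edgeR. Rpl7l1 had 90.0 and 99.9 CPM against 71.2 and 62.8 CPM, a log2 fold change of 0.43 (SE 0.16) with an adjusted p of 0.152. Rpl36a, a protein of the tRNA exit site, had 389.9 and 475 CPM against 310 and 294 CPM, a log2 fold change of 0.45 (SE 0.29). Rpl41 (0.33) and Rpl8 (0.29), which lies near the site of peptide bond formation, also had log2 fold changes above 0. None of these 5 genes was called. For each, both lenvatinib libraries lay above all 4 parental ones, as they did for 30.9% of all genes tested. The 5 were picked for high log2 fold changes in these libraries, so this separation is not separate support.

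**Figure D3:**
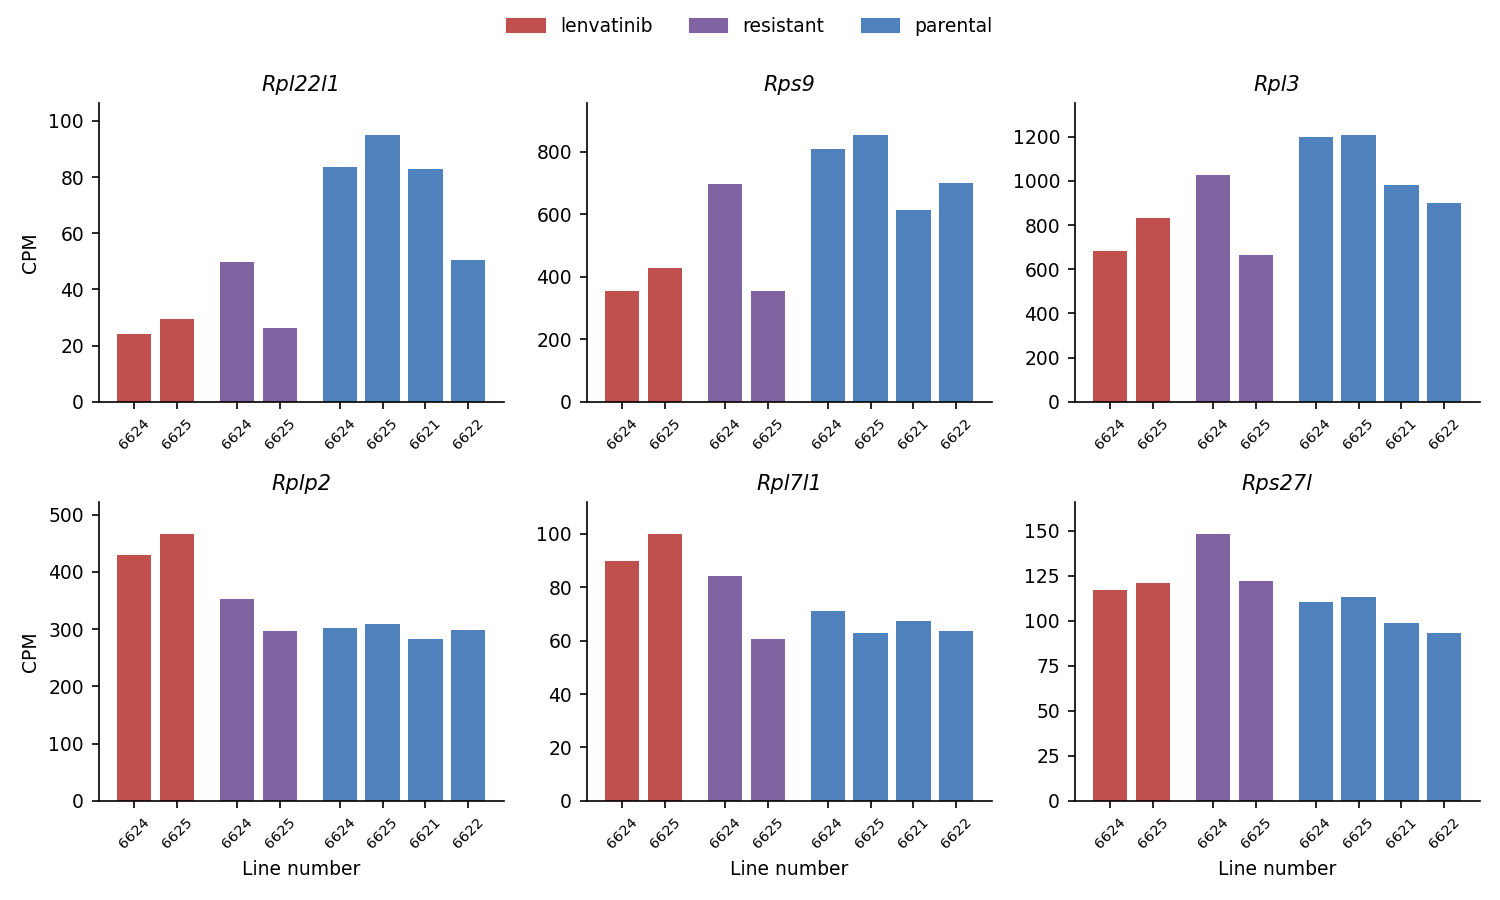
Bars give the CPM of 6 members in each library, with the group by colour and the line number below. Rpl22l1, Rps9 and Rpl3 are lower in both lenvatinib libraries than in all 4 parental ones and Rplp2 and Rpl7l1 are higher, while Rps27l is highest in the 2 resistant libraries.

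In total, 21 members had both lenvatinib libraries above all 4 parental libraries in CPM and 12 had both below. Over all genes tested these were 30.9% and 21.4%, so such separation was common in this comparison. Against the parental libraries of the same 2 lines alone, 21 members were higher, 35 lower and 24 overlapped, where 40.5% of all genes were higher and 32.4% lower.

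The median log2 fold change of the 80 members was -0.16, where that of all genes was -0.01. It was -0.26 for SNU-6624 and -0.08 for SNU-6625, with 44 members lower in both lines, 16 higher in both and 20 in opposite directions. Without lenvatinib SNU-6624 the median was 0.07 and without lenvatinib SNU-6625 it was -0.43, so the level of the whole set rests on single libraries. The members' log2 ratios within a line had a narrow spread, with an SD of 0.34 for SNU-6624 and 0.37 for SNU-6625, against 0.96 and 0.98 over all genes.

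The number of calls depended on which libraries shared the estimate of spread. A fit to only the 4 lenvatinib and parental libraries, with line as a term, called 28 of 80 members, 3 higher (Rplp2, Rpl7l1 and Rpl36a) and 25 lower, where it called 48.3% of all genes, 22.8% higher and 25.5% lower. In that fit the log2 fold change of Rps9 was -1.19 (SE 0.12), with an adjusted p of 0.00105 in edgeR, where its 17 alternatives ranged from 0.00104 to 0.547. Rps25 at -0.66 (SE 0.11), Rpl13a at -0.72 (SE 0.12) and Rpl3 at -0.77 (SE 0.13) were also called lower there. Leaving out resistant SNU-6624 alone gave 26 called members and 43.3% of all genes, leaving out resistant SNU-6625 alone gave 25 and 43.7%, and 25 members were called in all 3 of these fits. Those 3 fits share the 4 lenvatinib and parental libraries, so their overlap is not independent support. The share of all genes in that overlap is not given. The fit to 4 libraries leaves 1 residual degree of freedom. No member was called with all 8 libraries, with library size as the only scaling or with no filter, where 4.18%, 5.77% and 0.7% of all genes were. Without line as a term the same count of 1 was called, beside 6.18% of all genes. DESeq2 on the 6 libraries called 3 members, Rpl22l1, Rps9 and Rpl3, all lower, where it called 20.6% of all genes, and limma-voom called Rpl22l1 alone, with 9.96% of all genes.

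The order of the members within the set was much alike in the 2 lines. After each library was centred on its median member, Rpl22l1 stood at -1.56 for SNU-6624 and -1.75 for SNU-6625 on the log2 scale, lenvatinib minus parental. Rps9 stood at -0.95 and -1.06, Rpl3 at -0.57 and -0.60, and Rpl13a at -0.45 and -0.62. Rplp2 stood at 0.75 and 0.53, Rpl7l1 at 0.58 and 0.61, and Rpl36a at 0.57 and 0.63. Over the 79 members the centred changes of SNU-6624 and SNU-6625 had a Pearson r of 0.96 and a Spearman rho of 0.93, and 72 had the same sign. The lines share no library, but genes are not independent replicates, and over all genes the log2 ratios of the lines had a Pearson r of 0.88.

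**Figure D4:**
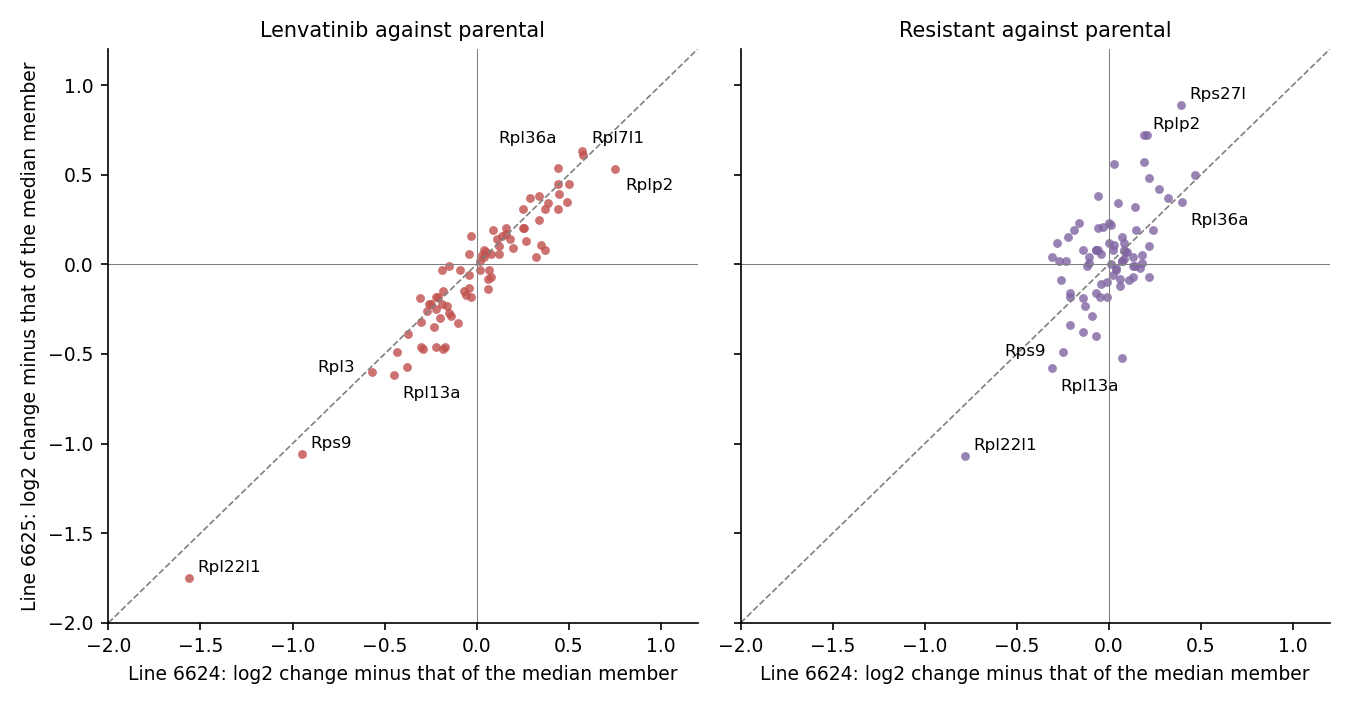
Each point is 1 of the 79 members, with its log2 change minus that of the median member in SNU-6624 on the x axis and in SNU-6625 on the y axis, for lenvatinib against parental on the left and resistant against parental on the right; the dashed line marks equal change. Points on the left lie along the line with Rpl22l1 and Rps9 at the low end, and points on the right scatter more, with r of 0.96 and 0.64.

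The lenvatinib values are also given by role. Of the stalk, Rplp0 had a log2 fold change of -0.28 (SE 0.27), Rplp1 0.04 (SE 0.30), Rplp2 0.47 (SE 0.18) and Rpl12 of the stalk base 0.06 (SE 0.21). Of the proteins that bind Mdm2 together with the 5S RNA, Rpl5 had 0.00 (SE 0.26) and Rpl11 -0.41 (SE 0.26). Rps6, the substrate of the kinase downstream of mTORC1, had 868 and 1062 CPM in lenvatinib SNU-6624 and SNU-6625 against 1042 and 911 CPM in parental libraries, and the groups overlapped. Rps27a, which is made as a fusion with ubiquitin, had 529.9 and 609 CPM against 616 and 576 CPM. None of these genes was called.

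Between resistant and parental organoids, the 2 lines differed. In SNU-6625 nearly every member was lower in the resistant library, and in SNU-6624 the members stayed near their parental level. The median log2 ratio of the 80 members was 0.03 for SNU-6624 and -0.54 for SNU-6625, where over all genes it was 0.00 and -0.03. In SNU-6625, 77 of 80 members were lower in the resistant library, while in SNU-6624 34 were lower and 46 higher, and 43 members had opposite directions. Whether the lines differ was not tested, since each has 1 library a group.

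The edgeR test over 6 libraries called 0 of 80 members for resistant against parental and 0.0% of all genes. At an unadjusted p under 0.05 it had 1 member, and 15.9% of all genes. DESeq2 called 1 member, Rpl22l1, and 6.74% of all genes, and limma-voom called 0 members and 0.0% of all genes, as did edgeR without line as a term. Without resistant SNU-6624, edgeR called 46 of 80 members, all lower, where it called 32.3% of all genes and 16.4% as lower. That fit sets the single resistant library of SNU-6625 against the parental libraries and assumes that it varies like the other groups. Without resistant SNU-6625 it called 1 member, Rpl22l1, with a log2 fold change of -0.76 (SE 0.13) and an adjusted p of 0.0494, where it called 3.26% of all genes. In CPM, 1 member was higher and 18 were lower in both resistant libraries than in the parental libraries of their lines, against 19.4% and 27.4% of all genes.

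Rpl22l1 had the lowest log2 fold change here too, with 49.9 and 26.3 CPM in resistant SNU-6624 and SNU-6625 against 83.5 and 94.9 CPM in their parental libraries. Its log2 fold change was -1.18 (SE 0.28) with an adjusted p of 0.247 in edgeR, and it was -0.76 for SNU-6624 and -1.63 for SNU-6625. It was the one member with both resistant libraries below all 4 parental ones, as were 15.1% of all genes, although 49.9 CPM in resistant SNU-6624 was close to the 50.5 CPM of parental SNU-6622. Rpl13a followed with 847 and 377 CPM against 1027 and 968 CPM, a log2 fold change of -0.71 (SE 0.32), and Rps9 with 696 and 355 CPM against 808 and 852 CPM, a log2 fold change of -0.63 (SE 0.31). Rpl24, which bridges the subunits, had 491 and 236 CPM against 553 and 510.2 CPM. For Rpl13a, Rps9 and Rpl24 most of the difference lay in SNU-6625.

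Rps27l, a paralog of Rps27 that p53 activates, ran against the set. It had 148 and 122 CPM in resistant SNU-6624 and SNU-6625, against 110.4 and 113 CPM in their parental libraries and 98.5 and 93.1 CPM in parental SNU-6621 and SNU-6622. It was the one member with both resistant libraries above all 4 parental ones, where 10.3% of all genes were. The log2 fold change of 0.36 (SE 0.14) was not called, with an adjusted p of 0.323 in edgeR, and it was 0.39 for SNU-6624 and 0.31 for SNU-6625. Counts of Rps27l were 45.8% and 71.8% of those of Rps27 in resistant SNU-6624 and SNU-6625, 32.9% and 29.8% in lenvatinib, and 32.7% to 37.9% in the parental libraries. Rps27 itself had 323 and 170.2 CPM in the resistant libraries against 307 and 298 CPM in the parental ones. Of 15 genes of p53 and ribosomal stress, 0 were called here, as were 0.0% of all genes. Their median log2 fold change was 0.65, with 0.28 for SNU-6624 and 0.88 for SNU-6625, and 11 were higher and 2 lower in both lines. Cdkn1a, the p53 target that stops the cell cycle, had 369 and 425 CPM in resistant libraries. It had 232, 135, 358 and 150.2 CPM in parental SNU-6624, SNU-6625, SNU-6621 and SNU-6622, so that parental SNU-6621 was close to the lower resistant library. The part of p53 in the Rps27l values was not tested.

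**Figure D5:**
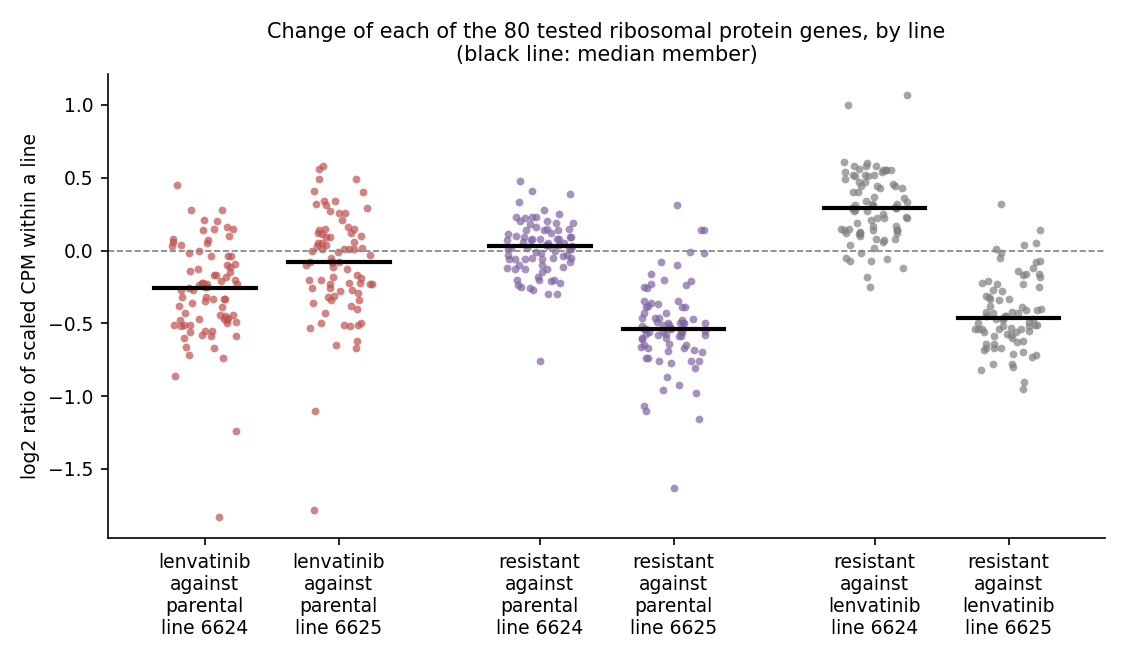
Each point is 1 of the 80 tested members, the y axis is the log2 ratio of scaled CPM within a line, and the black line is the median member. The medians are -0.26 and -0.08 for lenvatinib against parental, 0.03 and -0.54 for resistant against parental, and 0.29 and -0.46 for resistant against lenvatinib, in SNU-6624 and SNU-6625.

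Relative to the median member, the resistant changes scattered more between the lines. Rpl22l1 stood at -0.78 for SNU-6624 and -1.07 for SNU-6625, Rpl13a at -0.31 and -0.58, and Rps27l at 0.39 and 0.89. Rpl36a stood at 0.40 and 0.35, above the median member in each line. Over the 79 members the Pearson r between the lines was 0.64 and the Spearman rho 0.46, and 47 had the same sign. These values share the parental libraries with those of lenvatinib, and so are not independent of them.

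Between resistant and lenvatinib organoids, the lines were again opposite. The median log2 ratio of the members was 0.29 for SNU-6624 and -0.46 for SNU-6625, and 67 of 80 members were higher in resistant SNU-6624 and lower in resistant SNU-6625. The edgeR test over 6 libraries called 0 of 80 members, where 6.23% of all genes were called, 4.14% higher and 2.08% lower, and at an unadjusted p under 0.05 there were again 0 members, against 30.4% of all genes. DESeq2, limma-voom and edgeR without line as a term called 0 members, with 21.2%, 9.31% and 6.57% of all genes. Without resistant SNU-6624, 18 members were called, all lower, with 16.2% of all genes called lower, and without resistant SNU-6625, 8 were called, all higher, with 17.5% of all genes called higher. In CPM, 1 member, Rps27l, was higher in both resistant libraries than in both lenvatinib libraries and 9 were lower, against 22.3% and 36.4% of all genes.

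The 2 members lowest under lenvatinib stood nearer to their parental level in the resistant libraries of SNU-6624. Rps9 had 696 CPM in resistant against 355 CPM in lenvatinib SNU-6624, and 355 CPM in resistant against 428 CPM in lenvatinib SNU-6625, with a log2 fold change of 0.54 (SE 0.32) and an adjusted p of 0.319 in edgeR. Rpl22l1 had 49.9 and 26.3 CPM in resistant against 24.0 and 29.5 CPM in lenvatinib libraries, a log2 fold change of 0.64 (SE 0.28) with an adjusted p of 0.215. Rps27 (-0.52, SE 0.27), Rpl9 (-0.48, SE 0.28) and Rps21 (-0.42, SE 0.20) had the lowest log2 fold changes and were not called. Centred on the median member, Rps9 stood at 0.70 and 0.57, Rpl22l1 at 0.78 and 0.68, Rps27 at -0.42 and -0.41 and Rpl9 at -0.37 and -0.36 in SNU-6624 and SNU-6625. Other members were less alike, with Rps21 at -0.48 and -0.13 and Rps27l at 0.06 and 0.86. Over the 79 members the lines had a Pearson r of 0.47 and a Spearman rho of 0.43 in this comparison, and 50 had the same sign.

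Medians by subunit and by snoRNA hosting lay close together, and no difference between classes of members was tested. Under lenvatinib the median log2 fold change was -0.16 for 49 large-subunit and -0.15 for 31 small-subunit members. It was -0.16 for the 29 members that host snoRNAs, small RNAs that guide the modification of ribosomal RNA, and -0.13 for the 50 that do not. The 51 tested members with a pyrimidine run at the start had a median of -0.15, with -0.22 for SNU-6624 and -0.08 for SNU-6625. The 9 with a promoter entry and no such run had -0.27, with -0.35 and -0.22. In resistant against parental organoids these classes had medians between -0.26 and -0.21. Shorter transcripts stood slightly higher under lenvatinib, with a Spearman rho of -0.23 for SNU-6624 and -0.21 for SNU-6625 between transcript length and log2 ratio over 79 members, while over 12999 genes rho was 0.07 and 0.02. For resistant against parental, rho with length was -0.35 for SNU-6624 and -0.04 for SNU-6625, so the relation was not confined to lenvatinib. Under lenvatinib, rho between expression level and log2 ratio was -0.22 in each line. These are weak relations across genes that share these libraries.

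Processed pseudogenes, near-copies of these mRNAs, are where misplaced reads would collect. The 215 genes annotated by symbol as ribosomal protein pseudogenes held 1.32 and 1.40 counts per 100 counts of the members in the lenvatinib libraries, 1.43 and 1.59 in resistant and 1.44 to 1.72 in parental libraries. Of the 110 that were tested, 0 were called in any comparison by edgeR over 6 libraries, with a median log2 fold change of -0.56 under lenvatinib. How reads with several matches were counted is not stated in the sources used here, and members with near-identical copies are uncertain to that extent. The mitochondrial ribosomal protein genes, which build the separate ribosome of that organelle, had 1 of 78 called higher and 1 lower under lenvatinib, beside 5.78% of all genes called, with a median log2 fold change of 0.16.

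Genes that build and regulate ribosomes were set beside the members. Of 77 ribosome biogenesis factors, edgeR over 6 libraries called 6 higher and 0 lower under lenvatinib, beside 1.70% of all genes higher and 4.08% lower, with a median log2 fold change of 0.37 where that of the members was -0.16 and that of all genes -0.01. Those called were Nop14, Heatr1, Ddx10, Ddx51, Sdad1 and Surf6, all known from the nucleolar steps of ribosome assembly. Their adjusted p ran from 0.0408 to 0.0488 in edgeR, close to the threshold, and their values in the alternative fits are not given. Nop14 had 104 and 102 CPM in lenvatinib SNU-6624 and SNU-6625 against 50.9 and 41.4 CPM in parental libraries, a log2 fold change of 1.08 (SE 0.14) with an adjusted p of 0.0408. Heatr1 had 71.1 and 73.3 CPM against 35.3 and 34.4 CPM, a log2 fold change of 0.97 (SE 0.15) with an adjusted p of 0.0460. Surf6 had 50.3 and 53.4 CPM against 22.8 and 27.8 CPM. Assembly factors and ribosomal protein genes thus had medians on opposite sides of that of all genes, a difference that was not tested.

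Of 36 genes listed under translation initiation factors, regulators such as Eif4ebp1 included, 2 were called higher under lenvatinib and 0 lower. This stands beside the same 1.70% and 4.08% of all genes, and the median of the list was 0.25. Eif4ebp1, the mTORC1 substrate that holds back cap-dependent initiation, had 279 and 297 CPM in lenvatinib SNU-6624 and SNU-6625 against 92.2 and 73.7 CPM in parental libraries, a log2 fold change of 1.70 (SE 0.29) with an adjusted p of 0.0497 in edgeR. The other was Eif1ad, with 67.7 and 56.5 CPM against 33.6 and 28.3 CPM and an adjusted p of 0.0437 in edgeR. Both calls are close to the threshold, and neither gene is a core initiation factor. Of 39 genes of the mTORC1 pathway and LARP1, Fnip2 was called higher and Mlst8 lower, with a median of 0.48. These 2 of 39 are a share near the 5.78% called among all genes, and are not a result about the pathway. Mlst8, a subunit shared by both mTOR complexes, had 13.0 and 13.2 CPM against 27.9 and 24.2 CPM, a log2 fold change of -1.07 (SE 0.17) with an adjusted p of 0.0467. Larp1 had 331 and 294 CPM against 222 and 204 CPM and was not called. Of 33 genes of RNA polymerases I and III, 1 was called higher (Gtf3c3, of transcription factor TFIIIC), with a median of 0.23.

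Other TOP mRNAs were set beside the members. Of 22 further translation genes known to carry a TOP tract, 0 were called under lenvatinib, with medians of -0.20 for SNU-6624 and -0.02 for SNU-6625, and in resistant against parental they were -0.12 and -0.41. Rpsa, a small-subunit protein whose symbol the rule misses, had 1033 and 1072 CPM in lenvatinib SNU-6624 and SNU-6625, 1383 and 808 CPM in the resistant libraries and 1485 and 1306 CPM in their parental libraries. Eef1a1, the elongation factor that brings tRNAs, had 12604 and 12605 CPM in lenvatinib, 10759 and 6984 CPM in resistant and 11652 and 9995 CPM in parental libraries. The low value in resistant SNU-6625 was thus found here too. Of 18 noncoding snoRNA host and TOP genes, 0 were called under lenvatinib, with a median log2 fold change of -0.41, and in resistant against parental organoids the median was -0.51, both below those of the members, -0.16 and -0.25. Snhg20 was called lower in resistant against lenvatinib libraries.

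The remaining lists held few calls. The 13 genes of the MYC network had 0 called in each comparison, and Myc, the main inducer of ribosome production, had 161 and 135 CPM in lenvatinib, 177 and 158 CPM in resistant and 157 and 161 CPM in parental libraries of the 2 lines. The 15 genes of p53 and ribosomal stress had 1 called lower under lenvatinib, Eda2r, and the same gene was called higher in resistant against lenvatinib organoids with a log2 fold change of 1.89 (SE 0.16) and an adjusted p of 0.0249 in edgeR. Of 22 genes of ribosome quality control, Trip4 was called higher and Ascc3 lower under lenvatinib, where 5.78% of all genes were called, and Ankzf1 was called lower in resistant against lenvatinib organoids. The 4 genes of ribosome dormancy had 0 called in each comparison. In resistant against parental organoids edgeR over 6 libraries called 0.0% of all genes. That no gene of any list was called there is thus not a result about the lists. In resistant against lenvatinib organoids the calls were also Fbl higher and Surf6 lower among biogenesis factors, Gtf3c6 higher among polymerase genes, Mlst8 higher and Fnip2 lower in the mTORC1 list, and 1 mitochondrial ribosomal protein gene higher and 1 lower, where 6.23% of all genes were called.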

How the data were processed

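The deposited tables hold whole-number read counts per gene for 8 libraries, per the file headers. Per the labels' protocols, RNA was extracted with Trizol and columns and libraries were made with a stranded mRNA kit. Per the submitters' processing notes, which give no roles or order, the tools were StringTie 2.1.3b, HISAT2 2.1.0, Trimmomatic 0.38, Bowtie2 2.3.4.1 and FastQC 0.11.7, and mm10 was the build; how reads were counted, and with which strand setting, is not stated in the sources. The members and lists were chosen with earlier results of these data known.

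Counts were tested with edgeR 4.0.16 (R 4.3.3, quasi-likelihood F test, TMM scaling, filterByExpr) in a model of line plus group, fitted to the 6 libraries of SNU-6624 and SNU-6625; genes under an adjusted p of 0.05 are called. The 3 groups share 1 estimate of spread, with 2 residual degrees of freedom. Libraries of 1 line come from the same organoid line and their deviations from the group means correlated at 0.58, 0.29 and 0.29 (lenvatinib with parental, resistant with parental, resistant with lenvatinib). Standard errors are the log2 fold change over the square root of F. Ratios within a line are on log2(TMM-scaled CPM + 0.5). Centred values are log2 CPM minus that of the median member among the 79 with at least 20 CPM in every library. Levels per kb use the shortest consensus coding transcript of GENCODE M21. DESeq2 1.42.0, limma-voom (limma 3.58.1), other scaling, filters and sets of libraries were alternatives. The steps were tried on simulated data for lenvatinib against parental organoids. Where the simulated difference was 2-fold, they found 18 of 148 altered genes, or 12.2%. This share rose to 62.0% at 4-fold and 80.7% at 8-fold. A member that was not called in that comparison can thus still differ by 2-fold. No pair of libraries held identical values. Named members were the called ones, the 6 highest and 6 lowest fold changes, centred changes and levels, paralogs, and the genes furthest apart by parental line; the role groups, Rps6 and Rps27a were added after their values were seen. Sequence positions are those of RefSeq on GRCm38.p6. Values of some single members are not reported here.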

Additional observations from a re-analysis of the deposited data

Results flagged for a closer look

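The share of counts held by the members moved in opposite directions in the 2 lines in every comparison, and none of these differences between lines was tested. Lenvatinib minus parental was -0.816 percentage points in SNU-6624 and 0.0434 points in SNU-6625. Resistant minus parental was 0.0738 points in SNU-6624 and -2.03 points in SNU-6625, and resistant minus lenvatinib was 0.890 points in SNU-6624 and -2.07 points in SNU-6625. The median log2 ratio of the members was 0.03 in SNU-6624 and -0.54 in SNU-6625 for resistant against parental, and 0.29 and -0.46 for resistant against lenvatinib. The differences of -2.03 and -2.07 points both involve resistant SNU-6625, which had 3.08% of counts in the members, an Mki67 level of 0.279 CPM and the lowest TMM factor, 0.883, of the 6 libraries; the part of these values was not tested.

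Among the 4 parental libraries, Rpl32 had 1 value far from the rest. It had 472 CPM in SNU-6621 and 639 to 667 CPM in the other 3, a gap of 0.858 of the whole range, past Dixon's 95% critical value for 4 samples. Of 80 members examined in this way 1 passed, and chance alone passes about 1 in 20, which would be 4.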

How the results depend on the processing

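In lenvatinib against parental organoids, the count of called members was 1 in the 6 libraries. It was 0 with all 8 libraries, with library size only and with no filter, 28 with only the 4 libraries of the 2 groups and 3 in DESeq2, and 0 to 26 with 1 library left out: 26 without resistant SNU-6624, 25 without resistant SNU-6625 and 0 without any of the other 4. For the counts of 0 without 1 of the lenvatinib or parental libraries, the share of all genes called is not given. Those counts are thus not a result about the members. With 1 library left out, the median log2 fold change of the members ranged from -0.43 to 0.07. In resistant against parental organoids, the count of 0 became 1 in DESeq2 and 0 to 46 with 1 library left out (46 without resistant SNU-6624, 1 without resistant SNU-6625), and the median ranged from -0.60 to 0.07. In resistant against lenvatinib organoids it became 0 to 18 (18 without resistant SNU-6624, 8 without resistant SNU-6625), with medians from -0.41 to 0.25. Without the line as a replicate block the counts were 1, 0 and 0, so the block changed no count of called members. The log2 fold change of Rpl8 under lenvatinib turned to -0.02 without lenvatinib SNU-6625 and was 0.54 without lenvatinib SNU-6624. Scaling by library size alone moved the median of all genes in resistant against lenvatinib organoids to -0.14, where it was 0.02, and that of the members to -0.24, where it was -0.08. The share differences kept their sign under other denominators and member lists, and with 1 library left out, except without resistant SNU-6625, where resistant minus parental was 0.203 points and resistant minus lenvatinib 0.589 points. Within a line, resistant minus parental in SNU-6624 became -0.0339 points with genes above 1% of counts left out, and lenvatinib minus parental in SNU-6625 became -0.00744 points with the missed genes and pseudogenes added. The cause of these changes was not tested. With 2 libraries a group, the number of libraries limits the precision more than depth does. Transcript length is that of 1 annotated transcript a gene, and 20 members had no promoter entry to search.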
